A study of Mus musculus with 18 samples.

Results

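Hox genes encode homeodomain transcription factors that lie in 4 chromosomal clusters (Hoxa, Hoxb, Hoxc and Hoxd) and are numbered from the 3′ end of each cluster, so that genes with the same number in different clusters are paralogs. In the gut tube the low-numbered genes are switched on further forward and the high-numbered ones further back, and the last paralogs mark the hindgut, from which the distal colon and rectum form. Hox proteins bind DNA together with cofactors of the Pbx, Meis and Pknox families, and the caudal-type factors Cdx1 and Cdx2 act upstream of Hox genes in the posterior gut. The Hox genes were followed here through chemically induced, colitis-driven carcinogenesis in the mouse colorectum. They were chosen by name alone, as every gene with the symbol Hoxa, Hoxb, Hoxc or Hoxd and a number that had a probe set assigned to it and to no other gene. This gave 33 genes with 48 probe sets, of 18193 genes measured by such probe sets and of 39 Hox genes in the RefSeq gene table, and each gene was represented by the probe set with the highest mean.

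The data were 18 Affymetrix mouse whole-genome arrays of total RNA from colorectal tissue, 3 arrays labelled as biological replicates in each of 6 groups. All animals were male outbred ICR mice, 6 weeks old at the start. Control mice received saline by intraperitoneal injection and distilled water and gave normal mucosa on day 14. Every other mouse received the carcinogen azoxymethane (AOM, 10 mg/kg in 1 injection on day 1) and then drank dextran sulfate sodium (DSS), which damages the lining of the colon and sets off colitis. Inflamed mucosa was taken on day 14, after DSS at 2% on days 8 to 14. Low grade dysplasia (LGD) was taken on day 28, after that cycle alone. High grade dysplasia (HGD) was taken on day 42, after a further cycle at 1.5% on days 29 to 33. High grade dysplasia with active inflammation was taken on day 56, after a last cycle at 1.5% on days 50 to 54. Carcinoma was taken on day 140, after all 3 cycles. Because all controls came from day 14, pathological stage and the age of the mice cannot be told apart in the later stages, and the effects of AOM and of DSS cannot be told apart either, since no mice had only 1 of the agents.

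Values below are log2(signal + 16) of the deposited array signals, on which a difference of 1 is a doubling, and differences are log2 changes ± standard error from limma over all 18 arrays, with p-values adjusted over the 12877 genes tested. A gene passed when its adjusted p was below 0.05. Signals of different probe sets were not compared with each other as amounts of RNA. Array medians lay between 55.7 and 57.8 signal units, no 2 arrays were identical, and correlations between arrays ran from 0.897 to 0.993. The ratio of the 3′ to the 5′ control probe set of Gapdh, a sign of RNA length, was 1.63 (log2) in LGD replicate 2 and between -0.08 and 0.16 in the other arrays. Of genes that mark the tissue, Cdx1 and Cdx2, factors of the intestinal epithelium, averaged 9.92 and 8.83 in normal mucosa, and Insl5, a peptide of enteroendocrine cells of colon and rectum, averaged 11.90.

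Of the 33 Hox genes, 19 were tested and 14 were near background, defined as fewer than 3 of 18 arrays above the median signal of the whole table, 56.6 (6.18 on the log2 scale). Posterior genes (paralogs 9 to 13) were measurable most often, 10 of 14, against 5 of 9 middle genes (paralogs 5 to 8) and 4 of 10 anterior genes (paralogs 1 to 4). Of all 18193 genes 12877 were tested, a share close to that of the posterior genes and above those of the other classes. By cluster, 6 of 9 Hoxa, 7 of 9 Hoxb, 5 of 8 Hoxd and 1 of 7 Hoxc genes were tested, the last being Hoxc9. The 14 near background were Hoxa2, Hoxa4, Hoxa13, Hoxb1, Hoxb7, Hoxc4, Hoxc5, Hoxc6, Hoxc8, Hoxc10, Hoxc13, Hoxd1, Hoxd3 and Hoxd12. As a gauge of background, the 43 probe sets of olfactory receptors, genes of the nasal epithelium, had a median of 5.09 and a 95th percentile of 5.71. All 19 tested Hox genes had means above that percentile, and 10 of the 14 others had means below it, the exceptions being Hoxa13, Hoxc4, Hoxc5 and Hoxc6. Just inside the limit stood Hoxb6, above the table median in 4 arrays, and Hoxb5, in 7 arrays that included all 3 of normal and all 3 of inflamed mucosa. Just outside stood Hoxa13 and Hoxc6, in 2 arrays each, and a probe set near background gives no evidence on the transcript itself.

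**Figure D1:**
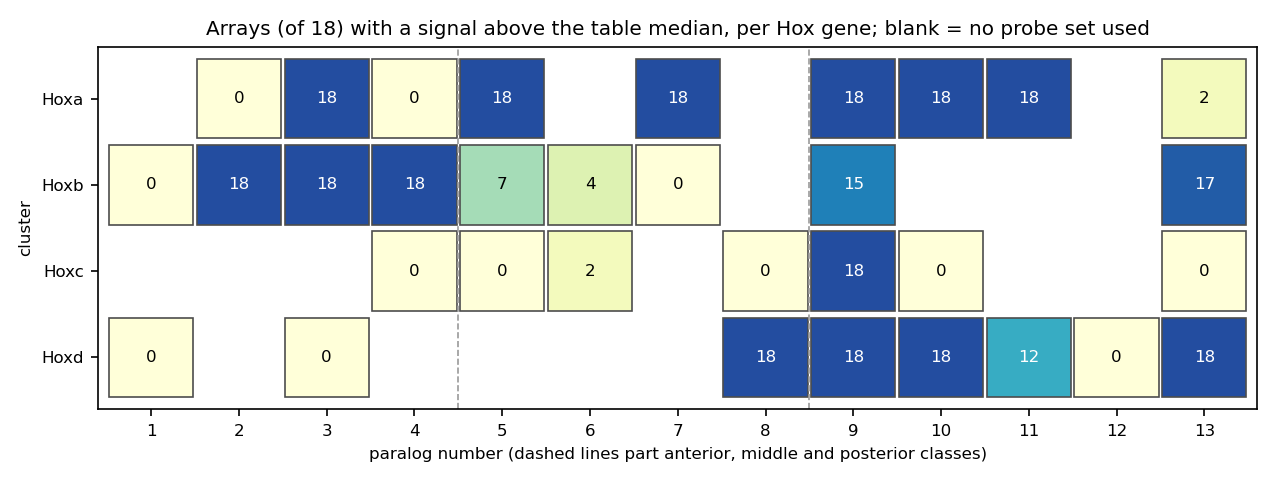
Grid of the 33 Hox genes by cluster (rows) and paralog number (columns). Each square gives the number of the 18 arrays in which the gene's signal lay above the table median. Colour runs from pale (0) to dark blue (18), and blanks are genes with no probe set used. The Hoxc row is at 0 to 2 except for Hoxc9, at 18. Hoxa3, Hoxa5, Hoxa7, Hoxa9 to Hoxa11, Hoxb2 to Hoxb4, Hoxd8 to Hoxd10 and Hoxd13 are at 18 as well. Hoxb13 is at 17, Hoxb9 at 15 and Hoxd11 at 12.

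Genes of the same cluster went both ways in inflamed mucosa: Hoxd13 fell and Hoxd8 rose, and Hoxa9 fell and Hoxa11 rose. Neither pair is adjacent, since Hoxd9 to Hoxd12 lie between the Hoxd genes and Hoxa10 between the Hoxa genes. The start regions of these 4 genes are shown to set genes of 1 cluster that changed in opposite directions beside each other, from 250 bases before to 50 bases after the annotated start (RefSeq, GRCm38.p6). They lie at chr2:74667975-74668274 on the plus strand (Hoxd13), chr2:74704365-74704664 on the plus strand (Hoxd8), chr6:52227321-52227620 on the minus strand (Hoxa9) and chr6:52245761-52246060 on the minus strand (Hoxa11). Each is printed 5′ to 3′ along the gene's strand, and capitals mark matches to any of 4 motifs.
Hoxd13: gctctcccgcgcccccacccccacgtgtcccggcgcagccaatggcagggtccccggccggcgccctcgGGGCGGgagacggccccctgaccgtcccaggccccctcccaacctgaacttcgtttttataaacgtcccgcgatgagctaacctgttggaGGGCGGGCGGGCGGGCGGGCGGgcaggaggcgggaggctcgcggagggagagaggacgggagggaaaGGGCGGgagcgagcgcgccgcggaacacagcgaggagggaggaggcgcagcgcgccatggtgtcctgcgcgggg
Hoxd8: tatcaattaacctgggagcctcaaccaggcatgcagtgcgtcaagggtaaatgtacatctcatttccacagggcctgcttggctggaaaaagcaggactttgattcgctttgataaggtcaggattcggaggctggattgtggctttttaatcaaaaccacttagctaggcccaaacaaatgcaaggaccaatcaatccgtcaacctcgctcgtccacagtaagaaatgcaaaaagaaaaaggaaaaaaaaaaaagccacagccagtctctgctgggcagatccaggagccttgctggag
Hoxa9: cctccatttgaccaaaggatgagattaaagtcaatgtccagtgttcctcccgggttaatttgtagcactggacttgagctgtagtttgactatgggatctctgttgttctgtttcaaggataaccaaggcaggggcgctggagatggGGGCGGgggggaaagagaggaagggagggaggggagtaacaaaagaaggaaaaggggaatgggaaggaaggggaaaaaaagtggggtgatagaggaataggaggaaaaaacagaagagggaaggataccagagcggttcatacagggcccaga
Hoxa11: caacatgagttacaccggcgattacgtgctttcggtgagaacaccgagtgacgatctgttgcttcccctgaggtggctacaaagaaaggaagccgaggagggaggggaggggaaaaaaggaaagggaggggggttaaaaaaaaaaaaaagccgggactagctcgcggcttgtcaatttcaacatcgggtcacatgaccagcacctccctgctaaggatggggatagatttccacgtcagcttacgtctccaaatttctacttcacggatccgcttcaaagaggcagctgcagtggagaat

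The motifs, sought on both strands with overlaps allowed, were TTTATG (a caudal-type site), TGACAG (a Meis site), TGATTNAT (a joint Pbx and Hox site) and GGGCGG (a GC box). Of 32851 promoters of the same 300 base length, 11.9%, 19.2%, 3.22% and 35.7% held them, against 5, 2, 2 and 10 of 24 Hox promoters from 22 genes, among them 12 of the 19 tested. All capitals printed are GC boxes: 7 matches for Hoxd13, some overlapping, and 1 for Hoxa9. The CG pair occurred 37 times in the Hoxd13 window, 15 times in that of Hoxa11, 6 times in that of Hoxd8 and 4 times in that of Hoxa9, beside medians of 15 over Hox promoters and 7 over all. The pair that fell thus held the highest and the lowest CG count of these 4 windows. These matches describe letters and no binding.

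Inflamed mucosa showed the widest Hox change of the 5 stages compared with normal mucosa. Hoxb13 and Hoxd13, the paralog 13 genes tested, fell most. On the log2 scale Hoxd13 fell by 2.08 (4.21-fold) and Hoxb13 by 4.07 (16.8-fold). Hoxb13 fell by 3.30 on that scale without inflamed replicate 2, where its value lay under the olfactory 95th percentile. Hoxa9, Hoxb9, Hoxd10, Hoxd11 and Hoxa7 fell as well. Hoxa11, Hoxd8, Hoxb2, Hoxb4 and Hoxb5 rose, by 1.52-fold to 2.01-fold. Of the 19 tested genes 12 passed, 5 higher and 7 lower, where 46.9% of all genes tested passed (22.6% higher and 24.3% lower), so the count lies in a comparison in which nearly as many genes passed as did not. The median change was -0.18 over the 19 genes and 0.01 over all genes. By class, the 10 posterior genes had 1 higher and 6 lower (median -0.78). The 5 middle genes had 2 higher and 1 lower (median -0.31), and the 4 anterior genes 2 higher and none lower (median 0.30). Class medians were not tested against each other.

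**Figure D2:**
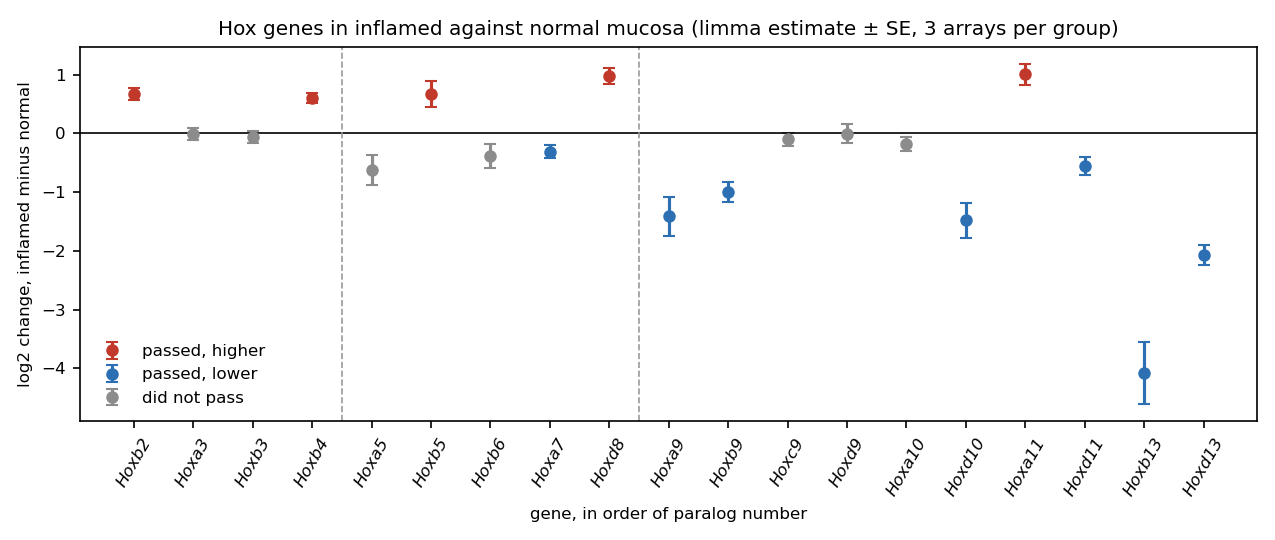
Log2 change of each of the 19 tested Hox genes in inflamed minus normal mucosa (vertical axis, limma estimate with standard error bars, 3 arrays per group), in order of paralog number, with dashed lines between the anterior, middle and posterior classes. Red points rose, blue points fell and grey points did not pass; the lower points gather at the right, down to -4.07 for Hoxb13, with Hoxa11 at 1.01 as the posterior gene that rose.

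Among the posterior genes, Hoxb13, the terminal gene of its cluster and a marker of distal colon, rectum and prostate, read 11.09, 11.03 and 10.95 in normal mucosa. In inflamed mucosa its arrays gave 8.53, 5.40 and 6.92, the middle one below the table median. The change was -4.07 ± 0.53 (adjusted p = 3.02e-05), and the inflamed arrays lay far below every normal array but also spread widely among themselves. Hoxb13 then read 9.44, 10.22 and 10.77 in LGD, 10.62, 10.49 and 10.41 in HGD, 9.82, 10.04 and 10.07 in HGD with active inflammation, and 10.55, 10.22 and 10.10 in carcinoma. All 12 of those arrays were above the inflamed ones and below the normal ones, although the changes against normal of -0.88, -0.52, -1.05 and -0.73 did not pass (adjusted p between 0.197 and 0.646).

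Hoxd13, the terminal Hoxd gene, active in hindgut and the distal limb, read 10.93, 11.20 and 10.97 in normal and 9.11, 9.06 and 8.70 in inflamed mucosa. The inflamed arrays lay close together and far below the normal ones, and the change of -2.08 ± 0.17 had the smallest adjusted p of the Hox genes (1.11e-06). It read 10.47, 11.07 and 10.44 in LGD, 10.64, 10.78 and 10.91 in HGD, 10.34, 10.38 and 10.58 in HGD with active inflammation, and 10.63, 10.18 and 10.49 in carcinoma. In HGD with active inflammation every array lay below the normal ones and the gene passed with a change of -0.60 ± 0.17 (adjusted p = 0.0417). That call was lost in 8 of 15 alternatives, among them the replicate block and each of the 6 arrays of these groups left out. In carcinoma a change of -0.60 did not pass (adjusted p = 0.0979). A second, dimmer Hoxd13 probe set changed by -0.70 in inflamed mucosa, the same direction at a smaller size.

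Hoxd10, a posterior Hoxd gene, read 8.70, 8.41 and 8.39 in normal and 7.20, 7.18 and 6.69 in inflamed mucosa, a change of -1.48 ± 0.30 (adjusted p = 9.92e-04). No inflamed array reached the normal range. The later stages ran from 7.29 to 8.64 and overlapped normal mucosa except in HGD, and none passed. Hoxd11, its neighbour, read 6.63, 6.32 and 6.15 in normal and 5.73, 5.81 and 5.89 in inflamed mucosa, a change of -0.56 ± 0.15 (adjusted p = 0.00778). All 3 inflamed values of Hoxd11 lay below the table median, so the size of its fall is set partly by background. In the later stages Hoxd11 ran from 5.89 to 6.51 and overlapped the normal arrays in each.

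Hoxa9, a posterior gene best known from blood progenitors and leukaemia, lay below normal mucosa in the inflamed arrays and above it in most later ones. It read 9.69, 9.58 and 9.99 in normal and 8.67, 8.42 and 7.94 in inflamed mucosa, a change of -1.41 ± 0.33 (adjusted p = 0.00284). It then read 10.87, 10.78 and 10.06 in LGD, 10.44, 10.56 and 10.65 in HGD, 9.47, 11.11 and 10.76 in HGD with active inflammation, and 10.63, 10.71 and 10.42 in carcinoma. Apart from replicate 1 of HGD with active inflammation, each of these arrays lay above all normal ones. The changes of 0.82, 0.80, 0.69 and 0.83 did not pass (adjusted p = 0.147, 0.202, 0.175 and 0.204), and these 4 comparisons share the same 3 normal arrays. A second Hoxa9 probe set changed by -0.78 in inflamed mucosa and by 0.56, 0.62, 0.57 and 0.58 in the later stages. From inflamed mucosa to LGD, 2 groups that share no arrays, Hoxa9 rose by 2.23 ± 0.33 (adjusted p = 1.7e-04).

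Hoxb9, a posterior Hoxb gene, read 6.97, 7.11 and 6.66 in normal and 6.12, 6.01 and 5.60 in inflamed mucosa, a change of -1.002 ± 0.17 (adjusted p = 2.57e-04). The inflamed arrays all lay below the table median. Hoxb9 read 7.49, 7.20 and 7.36 in HGD, above each normal array, a change of 0.44 that did not pass (adjusted p = 0.178). In LGD, HGD with active inflammation and carcinoma its arrays ran from 6.77 to 7.39 and overlapped normal mucosa.

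Hoxa11, which patterns the limb and the reproductive tract, was the posterior gene that rose. It read 6.61, 7.07 and 7.02 in normal and 7.52, 8.24 and 7.96 in inflamed mucosa, a change of 1.01 ± 0.18 (adjusted p = 3.09e-04). The later stages ran from 6.72 to 7.29 and overlapped normal mucosa in every group. Hoxa11os, the antisense transcript of this gene, changed by -0.41 in inflamed mucosa and did not pass (adjusted p = 0.09). In inflamed mucosa the other 3 posterior genes stayed close to normal: Hoxa10 changed by -0.18 (95% interval -0.44 to 0.08), Hoxc9 by -0.10 (-0.33 to 0.13) and Hoxd9 by -0.01 (-0.35 to 0.34).

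Among the middle genes, Hoxd8 read 6.33, 6.26 and 6.39 in normal and 7.19, 7.33 and 7.40 in inflamed mucosa, a change of 0.98 ± 0.14 (adjusted p = 6.75e-05). It read 6.62, 6.94 and 6.89 in HGD with active inflammation, where it rose by 0.49 ± 0.14 (adjusted p = 0.0413). That call was lost in 8 of 15 alternatives, among them the replicate block and each normal array left out. Hoxd8 read 6.98, 6.66 and 6.60 in carcinoma, where a change of 0.42 did not pass (adjusted p = 0.141). Both late groups lay above all normal and below all inflamed arrays. LGD arrays read 6.68, 6.86 and 6.32 and HGD arrays 6.52, 6.30 and 6.51, overlapping the normal range.

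Hoxb5, which acts in the mesenchyme and in neural crest cells that form the enteric nervous system, read 6.46, 6.81 and 6.26 in normal and 7.04, 7.53 and 6.96 in inflamed mucosa. It rose by 0.67 ± 0.22 (adjusted p = 0.0233), and without normal replicate 1, normal replicate 3 or inflamed replicate 2 this no longer passed, with changes of 0.64, 0.54 and 0.49. It then read 5.98, 6.25 and 5.73 in LGD, 6.08, 5.49 and 6.04 in HGD, 5.25, 5.93 and 5.81 in HGD with active inflammation, and 5.92, 5.64 and 5.87 in carcinoma. All 12 of these lay below every normal array, and 11 of them below the table median. Against normal mucosa Hoxb5 fell by 0.85 in HGD with active inflammation (adjusted p = 0.0303), a call lost in 5 of 14 alternatives, while changes of -0.53, -0.64 and -0.70 in LGD, HGD and carcinoma did not pass (adjusted p = 0.165, 0.141 and 0.129).

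Hoxa7, a middle Hoxa gene, read 7.69, 7.44 and 7.81 in normal and 7.42, 7.27 and 7.31 in inflamed mucosa. The change of -0.31 ± 0.11 (adjusted p = 0.0267) was the smallest that passed, the lowest normal and the highest inflamed array nearly met, and it was lost in 5 of the alternatives, among them without normal replicate 3 (-0.23). In the later stages Hoxa7 ran from 7.64 to 7.87 and overlapped normal mucosa. Hoxa5, which patterns gut and lung mesenchyme, lay lower in every inflamed array (7.44, 7.72 and 7.27 against 8.10, 8.23 and 7.99), but its change of -0.63 missed the threshold (adjusted p = 0.0568). Hoxb6 changed by -0.39 (95% interval -0.83 to 0.06) at levels around the table median.

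Of the 4 anterior genes, Hoxb2 and Hoxb4 rose and Hoxa3 and Hoxb3 did not. Hoxb2, known for its part in hindbrain segmentation, read 6.67, 6.94 and 6.73 in normal and 7.43, 7.53 and 7.38 in inflamed mucosa, a change of 0.67 ± 0.11 (adjusted p = 1.79e-04). Its later arrays ran from 6.43 to 6.80, and in carcinoma (6.58, 6.53 and 6.43) all lay below normal, a change of -0.27 that did not pass (adjusted p = 0.217). Hoxb4, known from blood stem cells, read 6.94, 7.05 and 6.82 in normal and 7.58, 7.52 and 7.52 in inflamed mucosa, a change of 0.60 ± 0.09 (adjusted p = 6.12e-05), with 6.68 to 7.13 in the later stages. Between these 2 genes in the cluster, Hoxb3 changed by -0.06 (95% interval -0.28 to 0.16), and Hoxa3 changed by -0.01 (-0.23 to 0.22), intervals that leave out changes as large as those of Hoxb2 and Hoxb4. The probe sets of Hoxa3 disagreed, since the 3 others, all near background, changed by -0.81, -0.02 and -0.33. In inflamed mucosa the second probe sets of Hoxb4, Hoxd8 and Hoxa5 went the same way as the first, at 0.46, 0.57 and -0.37. The second, dimmer Hoxd8 probe set changed by 0.14 in HGD with active inflammation and by 0.09 in carcinoma, less than the first.

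**Figure D3:**
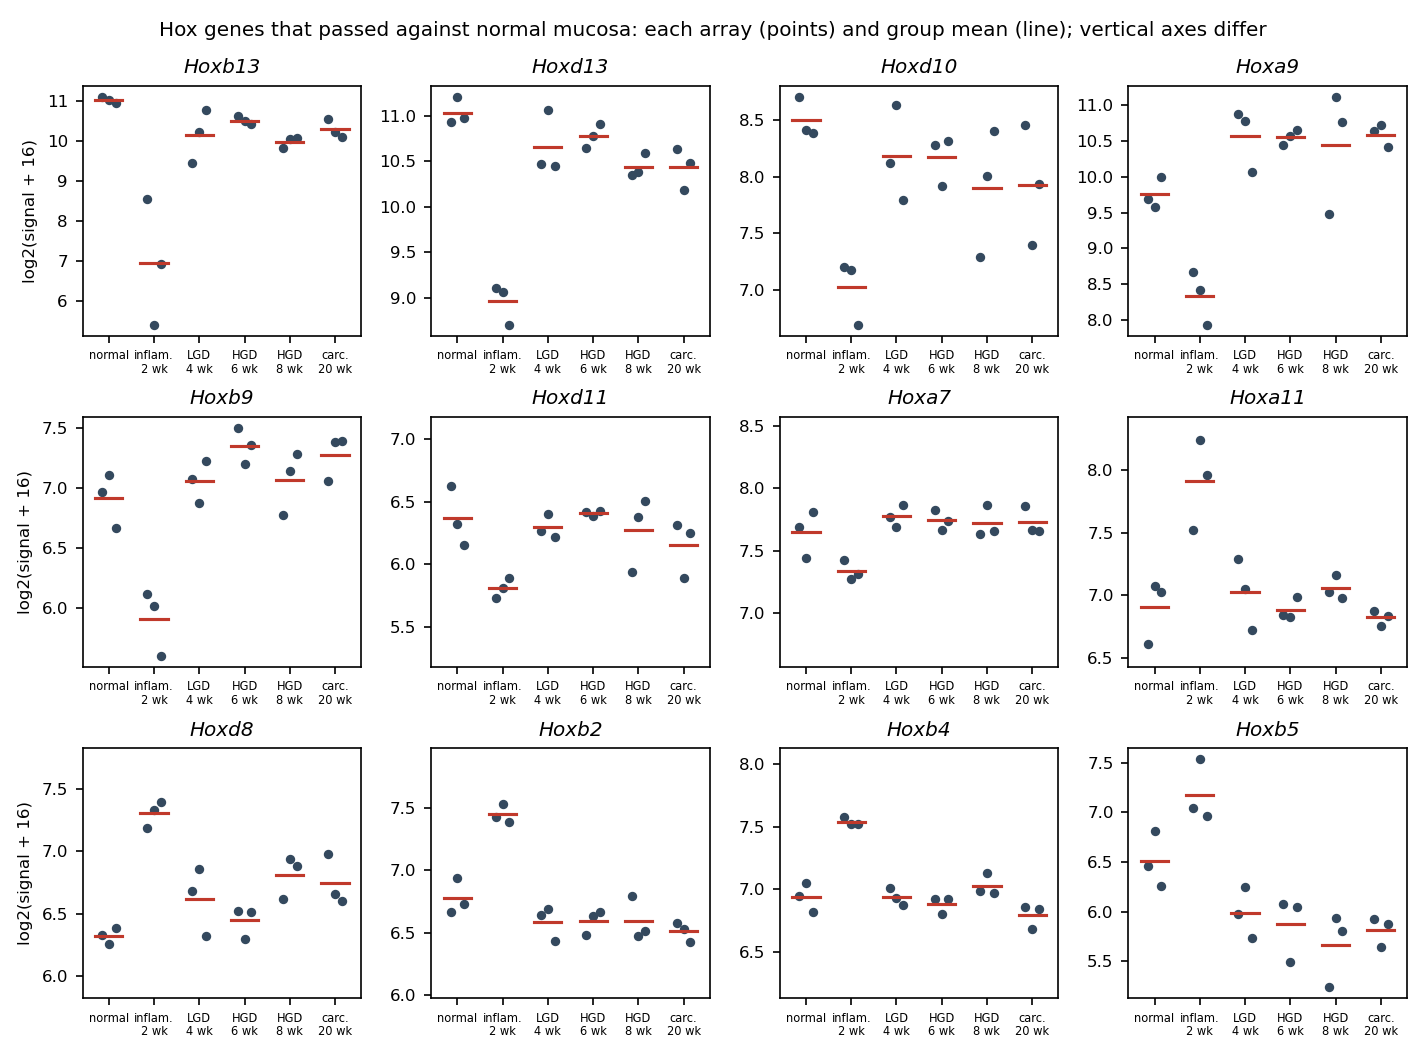
log2(signal + 16) of the 12 Hox genes that passed in at least 1 comparison with normal mucosa, 1 panel per gene; points are arrays (3 per group), red lines group means, and vertical ranges differ between panels. The first 7 panels drop at 2 weeks and the last 5 peak there; Hoxa9 lies above normal in most later arrays and Hoxb5 below it.

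The step from inflamed mucosa to LGD, with 2 weeks without DSS between them, turned these changes round. Hoxb13 rose by 3.19 ± 0.53 (adjusted p = 3.87e-04) and Hoxd13 by 1.70 ± 0.17 (adjusted p = 9.73e-06), with Hoxa9, Hoxb9, Hoxd10, Hoxd11 and Hoxa7 also higher. Hoxb5 fell by 1.19, Hoxa11 by 0.89, Hoxb2 by 0.86, Hoxd8 by 0.69 and Hoxb4 by 0.60. In all 12 of the 19 genes passed, 7 higher and 5 lower, where 36.3% of all genes tested passed (19.3% higher and 17% lower). They were the genes that had passed between inflamed and normal mucosa, and both comparisons use the same inflamed arrays. The median change was 0.25 over the 19 genes and 0.02 over all genes. Without LGD replicate 2, the array with the high Gapdh ratio, 11 passed.

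Against normal mucosa few Hox genes passed in the dysplasia and carcinoma groups. Where few of all genes passed, a count of 0 among 19 does not set the Hox genes apart. In LGD none of the 19 genes passed, with 3 at an unadjusted p below 0.05, where 5.69% of all genes passed and 24.4% had such an unadjusted p. In HGD none passed (4 unadjusted), where 1.14% of all genes did (19.6% unadjusted). In carcinoma none passed, where 0.901% of all genes did. There 7 of the 19 had an unadjusted p below 0.05, a larger share than the 18.5% of all genes, while in LGD the Hox share was the smaller. In HGD with active inflammation 3 passed, Hoxd8 higher and Hoxb5 and Hoxd13 lower, where 11.3% of all genes did (4.84% higher and 6.42% lower). None of those 3 passed without normal replicate 1, normal replicate 2 or replicate 3 of HGD with active inflammation. When HGD or carcinoma was fitted with normal mucosa alone, Hoxa9 and Hoxb13 passed in each, in a fit that called 1633 and 529 genes in place of 147 and 116. The median Hox change was 0.00, -0.02, -0.05 and -0.14 in the 4 groups in order of time, beside 0.02, 0.01, 0.03 and -0.02 over all genes.

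Between the late groups no Hox difference was found. HGD with active inflammation differed from HGD in none of the 19 genes (1 unadjusted), where 0% of all genes passed (423 or 3.28% unadjusted), and carcinoma differed from HGD in none (0 unadjusted), where 0% passed as well (580 or 4.5% unadjusted). The least certain gene was Hoxb13, whose 95% interval for carcinoma minus HGD ran from -1.35 to 0.91, so a change of that size in either direction is not shut out. Among all 6 groups, 13 of the 19 genes differed by limma's moderated F test, where 45.3% of all genes did: the 12 above and Hoxa10 (adjusted p = 0.0218). Hoxa10 read 7.09, 7.05 and 7.31 in normal, 6.85, 7.25 and 6.82 in inflamed mucosa, 7.41, 7.49 and 7.56 in HGD and 7.45, 7.38 and 7.42 in carcinoma. In HGD and carcinoma it lay above every normal array, with changes of 0.34 and 0.26 that did not pass (limma, adjusted p = 0.155 and 0.269). Hoxa3, Hoxa5, Hoxb3, Hoxb6, Hoxc9 and Hoxd9 did not pass the F test.

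The genes that work with and above Hox genes moved in inflamed mucosa too. Of 9 Hox cofactors 7 were tested and 5 rose, where 22.6% of all genes did, and none fell: Meis2 by 1.81, Meis1 by 0.87, Pknox2 by 0.85 and Pbx3 by 0.76, with Meis3 at 0.39. The median of the 7 was 0.76, beside 0.01 over all genes. All 5 were lower again in LGD than in inflamed mucosa, and none passed in a later stage against normal. Of the posterior gut factors, Cdx1 changed by -3.71 (adjusted p = 3.92e-05) and Cdx2 by -2.18 (adjusted p = 0.00215). Neither passed in a later stage. Evx1, a homeobox gene next to Hoxa13 at the end of the Hoxa cluster, read near the table median in normal and inflamed mucosa and rose in HGD by 2.01 (adjusted p = 0.0485) and in HGD with active inflammation by 1.59 (adjusted p = 0.0387). Its changes of 1.58 and 1.51 in LGD and carcinoma did not pass (adjusted p = 0.0528 and 0.109).

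The genes listed as markers of anterior gut, distal colon or small intestine did not pass against normal mucosa in any stage after inflamed mucosa. Of the anterior gut factors, Pdx1 (duodenum and pancreas) and Onecut2 were tested, and neither passed in inflamed mucosa. In carcinoma Onecut2 changed by 1.95 and Pdx1 by 0.46, each higher in all 3 arrays (adjusted p = 0.0701 and 0.32). Of 4 distal colon genes 2 fell in inflamed mucosa, with changes of -4.56 for Hsd11b2 and -0.63 for Scnn1b, and of 3 small intestine genes tested 2 fell as well, with changes of -4.21 for Fabp2 and -2.07 for Fabp6, where 24.3% of all genes fell. Insl5, also a distal colon gene, averaged 11.90 in normal and 8.77 in inflamed mucosa. It averaged 8.95 in LGD, 10.23 in HGD, 8.61 in HGD with active inflammation and 10.35 in carcinoma. Every array of these groups lay below every normal array, although Insl5 spread widely in some groups and passed in none.

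Signals of cell type markers differed between inflamed and normal mucosa as well. In inflamed mucosa 10 of 10 epithelial markers fell (median -3.08), 8 of 8 fibroblast markers rose (median 1.23), as did 5 of 5 endothelial, 4 of 4 enteric neuron and glia, 6 of 6 neutrophil and 4 of 6 immune cell markers. Of all genes tested, 24.3% fell and 22.6% rose in this comparison. None of 9 smooth muscle markers passed (median -0.58) and none of 4 squamous markers (median 0.08). The summed epithelial signal was 60014 to 63676 in normal and 1123 to 29560 in inflamed mucosa, and the summed fibroblast signal 24401 to 27952 and 51806 to 71726. The lowest epithelial marker value in inflamed mucosa was 5.01, under the olfactory receptor median. The mean epithelial difference from normal was -1.38, -5.46 and -2.71 in inflamed replicates 1, 2 and 3, the order in which Hoxb13 stood (8.53, 5.40 and 6.92), as did Hoxa7, while Hoxd13 (9.11, 9.06 and 8.70), Hoxd10, Hoxa9, Hoxb9 and Hoxd11 did not follow that order. Without inflamed replicate 2 the change of Hoxb13 was -3.30 (adjusted p = 3.81e-05) and 11 of 19 genes passed. The fibroblast mean stood at 1.10, 1.73 and 1.25 above normal in these arrays, the order of Hoxa11 (7.52, 8.24 and 7.96) but not of Hoxd8, Hoxb2, Hoxb4 or Hoxb5. The enteric neuron and glia mean, at 1.28, 1.49 and 1.34, had the order of Hoxa11 too. The endothelial mean, at 1.34, 1.47 and 1.22, had that of Hoxb2 and Hoxb5, and the immune cell mean, at 1.42, 1.57 and 2.00, that of Hoxd8. The smooth muscle mean, at -0.56, -0.32 and -0.69, had the order of Hoxb2 and Hoxb5 as well. Hoxb4, which rose, had the epithelial order, with replicates 2 and 3 almost equal. With 3 arrays a shared order does not single out a cell type. The part of these markers' cell types in the Hox changes was not tested, and in bulk tissue fewer cells of a type and less RNA per cell cannot be told apart.

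**Figure D4:**
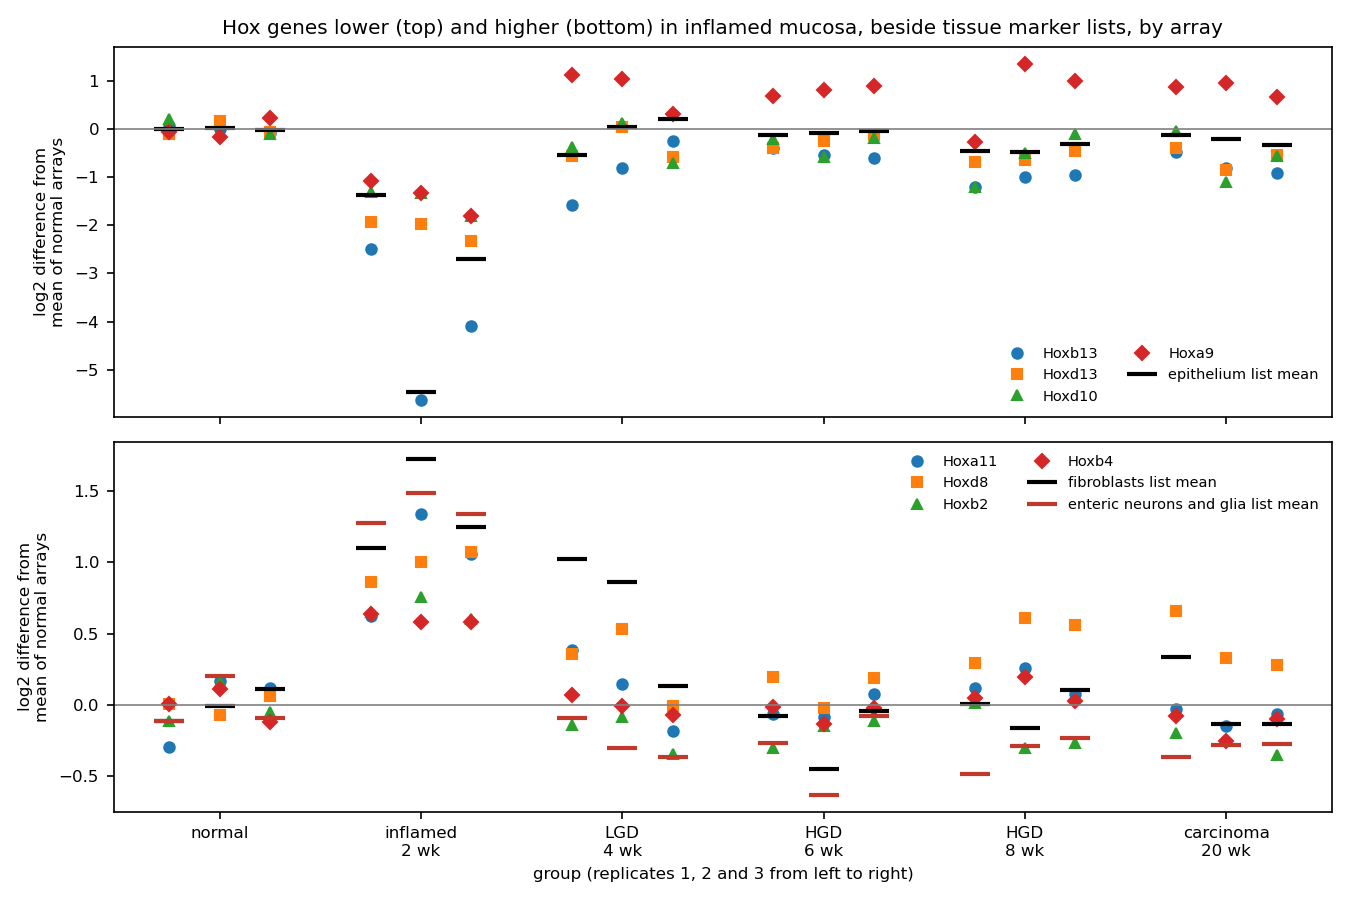
Difference of each array from the mean of the normal arrays (log2, vertical axis), by group with replicates 1 to 3 from left to right: above, 4 Hox genes that fell in inflamed mucosa with the mean of 10 epithelial markers (black bars); below, 4 that rose with the means of fibroblast (black bars) and enteric neuron and glia markers (red bars). The epithelial bar returns to between -0.53 and 0.21 from LGD on, where Hoxa9 (red diamonds) lies above 0 in 11 of 12 arrays.

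In the later stages the epithelial markers lay near normal, none of 10 passing in any stage, with medians of -0.09, -0.09, -0.38 and -0.25. In LGD 2 of 6 neutrophil (median 2.10), 1 of 8 fibroblast and 1 of 6 immune cell markers rose. There 1 of 4 enteric neuron and glia markers fell, where 5.69% of all genes passed in either direction. The neutrophil mean stood 4.98, 2.47 and 0.83 above normal in LGD replicates 1, 2 and 3. None of the markers of these 4 lists passed in HGD or carcinoma. In HGD with active inflammation 3 of 9 smooth muscle markers fell (median -1.24), and 1 of 8 fibroblast and 1 of 4 enteric neuron and glia markers fell, where 6.42% of all genes did. There 2 of 6 neutrophil markers rose (median 1.46), where 4.84% did. These stood beside the lower Hoxb5 and Hoxd13 and the higher Hoxd8. Their part in those 3 changes was not tested.

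Of 20 genes flanking the clusters that were tested, 2 rose and 9 fell in inflamed mucosa, where 22.6% and 24.3% of all genes did. Beyond Hoxb13, Ttll6 changed by -0.73 in inflamed mucosa (adjusted p = 6.72e-05), and it passed also in LGD, HGD and HGD with active inflammation, where Hoxb13 did not, while Atp5g1 changed by -0.82 in inflamed mucosa (adjusted p = 6.3e-04) and passed in no later stage. Beyond Hoxd13, Lnpk changed by -0.28 (adjusted p = 0.0678) and Atp5g3 by -0.34 (adjusted p = 0.0031), and beyond Hoxd1 at the other end Mtx2 changed by -0.20 (adjusted p = 0.267). Beyond Evx1 at the Hoxa13 end, Hibadh was lower in each of the 5 stages, with changes of -0.84 in inflamed mucosa (adjusted p = 1.67e-04) and -0.77 in carcinoma (adjusted p = 0.0226).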

How the data were processed

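Total RNA of 18 colorectal samples was hybridised to 1-colour Affymetrix arrays. The deposited value table holds 1 intensity per probe set and array on a linear scale, made with MAS5 per the submitters' processing notes; its version and settings, and the genome build of the array design, were not stated in any source used here, and the table holds no detection calls. MAS5 subtracts mismatch probes, which makes low values noisy. Of 45101 probe sets, 34945 were assigned to 1 gene by the platform annotation, and 34741 of these were matched to the RefSeq gene table. The deposited intensity values were taken as log2(signal + 16) with no further scaling. A probe set was tested when at least 3 of 18 arrays lay above the table median, and each gene was represented by the probe set with the highest mean. Changes were fitted with limma 3.58.1 in R 4.3.3 (eBayes with an intensity trend, all groups in 1 fit, 12 residual degrees of freedom), 2-sided, with Benjamini-Hochberg adjustment over 12877 genes and a threshold of 0.05. The script was tested on simulated data.

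Values of every array are given for Hox genes that passed against normal mucosa in at least 1 comparison; of other lists, up to 4 members with the largest change and Cdx1, Cdx2, Meis1 and Meis2. Some members of these lists are not reported here. The members, lists and rules were chosen with earlier results of these data known. Columns of other samples numbered 0. Precision is limited by having 3 arrays in each group. Same-numbered replicates did not deviate together (45 pairs of arrays, correlations from -0.46 to 0.33, 11 above 0.1), so the numbers were not used as a pairing. Alternatives were other pseudocounts (1 and 64), no filter or a stricter one (9 arrays), quantile normalization, no intensity trend, only the groups compared, a replicate block, another probe set rule, and each array left out in turn.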

Additional observations from a re-analysis of the deposited data

Results flagged for a closer look

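Some Hox genes stood on opposite sides of normal mucosa in inflamed mucosa and in a later stage, with all 3 arrays of each group to that side. Hoxa9 was lower in inflamed mucosa and higher later, and the later change exceeded the inflamed one by 2.23 in LGD, tested by the direct comparison of the groups (limma, adjusted p = 1.7e-04), and by 2.21 in HGD and 2.25 in carcinoma, differences that were not tested. Hoxb5 was higher in inflamed mucosa and lower later, with a difference of -1.19 for LGD (limma, adjusted p = 9.16e-04), and of -1.31 for HGD, -1.52 for HGD with active inflammation and -1.37 for carcinoma, which were not tested. Hoxb2 differed by -0.94 between carcinoma and inflamed mucosa and Hoxb9 by 1.44 between HGD and inflamed mucosa, neither tested. Of the changes against normal behind these values, those of Hoxb5 in HGD with active inflammation and of the 4 genes in inflamed mucosa passed, and the others did not. The p-values for LGD test its difference from inflamed mucosa and not its position against normal mucosa. These genes were picked from the same arrays that gave the p-values.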

How the results depend on the processing

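Of 27 Hox gene changes that passed, 21 kept their direction and their call in every alternative in which the gene was tested, and 0 changed sign. The 6 that lost the call in some were Hoxa7 and Hoxb5 in inflamed mucosa, Hoxb5, Hoxd13 and Hoxd8 in HGD with active inflammation, and Hoxd11 between inflamed mucosa and LGD. Hoxb5 was not tested under the stricter filter, so its changes had 14 alternatives where those of the other genes had 15. For HGD with active inflammation the count of 3 became 1 (Hoxb5) with no filter on low values and 1 with the replicate number as a block, and 0 to 3 with single arrays left out. For HGD and for carcinoma it went from 0 to 2 with only the groups compared, and stayed at 0 with single arrays left out. For LGD the count of 0 became 1 without LGD replicate 3 (Hoxd8) or without replicate 1 of HGD with active inflammation (Hoxa9). Inflamed mucosa had 10 to 13, LGD against inflamed mucosa 11 to 13, the F test 9 to 14 and the comparisons with HGD 0. The cause of these shifts was not tested. With the replicate block the counts were 12 in inflamed mucosa and 12 between LGD and inflamed mucosa. Leaving out arrays moved the count over all genes more: 70 to 1787 in LGD, 6 to 439 in HGD, 333 to 2202 in HGD with active inflammation and 8 to 372 in carcinoma. Quantile normalization moved the median of all genes by less than 0.1 in each comparison. A signal near the table median limits what can be said of Hoxb5, Hoxb6, Hoxb9 and Hoxd11.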
